A study of Homo sapiens with 3 samples.

Results

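The ATF4 amino acid response and the cytosolic tRNA synthetases were described in IMR-90, a fibroblast line from human fetal lung, at 24 h after 1 of 3 siRNAs was introduced. The arrays were hybridised with RNA from cells given SETD8 siRNA 1 (SETD8-1 in the labels), SETD8 siRNA 2 (SETD8-2) or a control siRNA labelled GL3. SETD8, also known as PR-Set7 and listed here as KMT5A, is a methyltransferase of histone H4. All cells shared the same medium with 10% serum and the same transfection reagent, and the series asked how expression in fibroblasts differs when SETD8 is knocked down. Each siRNA has 1 array, so no value below has a replicate error, no difference was tested and no p-value is given. The genes were chosen by name: 40 genes of the ATF4 response, serine and one-carbon metabolism, amino acid transport and tRNA charging. Earlier results of these data were known when they were chosen, so a count set beside the share of all genes is a description only. Of these, 39 had a probe set that names them alone, out of 19775 genes on the array, and 38 of the 39 passed a cut on mean signal, out of 12307 genes. The 2 genes left out are MARS1, whose 3 probe sets also carry the symbol of a microRNA gene, and SLC6A9, a glycine transporter, with signals of 21.4 with SETD8 siRNA 1, 14.5 with SETD8 siRNA 2 and 9.2 with the control siRNA, near the floor of 11.7. All 38 others lay above the cut of 42.0 on every array, the dimmest value being 175.1 for VLDLR with SETD8 siRNA 2.

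ATF4 is a transcription factor whose messenger RNA is translated more when the initiation factor eIF2 is phosphorylated, for example by the kinase GCN2 when uncharged tRNA builds up during amino acid shortage. With partners of the C/EBP family it binds a composite C/EBP-ATF motif and raises genes that make, import and charge amino acids, together with regulators such as DDIT3 and TRIB3 that limit the response. Because ATF4 is controlled largely at translation, the level of its messenger RNA is only part of its activity, and array signals report RNA alone.

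The composite motif was searched as TGATGNAA and its reverse complement TTNCATCA, thus on both strands, in RefSeq promoter windows of build GRCh38.p14 that run from 250 bases before to 50 bases after a gene start. Of the 40 genes, 33 matched the table by symbol, with 52 windows, and 14 of the 33 (42.4%) held the motif in at least 1 window. Among all 27305 genes in the table the share was 4.46%, and among all 35116 windows it was 3.62%, against 26.9% of the 52. The genes were chosen by name and include ATF4 targets, so a high share may be partly built into the choice and is a description only. The motif was in a window of 7 of 10 tRNA synthetases, 4 of 7 transporters, 1 of 6 regulators (CEBPG), 1 of 4 stress effectors (CHAC1), 1 of 3 enzymes for asparagine, proline and cysteine (ASNS) and 0 of 3 serine and one-carbon enzymes. A match is a run of letters and not a known site of binding, and a window without one says nothing of sites elsewhere.

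The 6 windows shown are those of the motif-bearing genes that differed most between the SETD8 siRNAs, from 250 bases before the start to 20 bases after it, with the motif letters in capitals. They lie at chr7:97872389-97872658 on the minus strand (ASNS, asparagine synthetase), chr2:64989149-64989418 on the plus strand (SLC1A4, a transporter of alanine, serine and cysteine), chr19:33373863-33374132 on the plus strand (CEBPG, a C/EBP partner of ATF4), chr5:33440715-33440984 on the plus strand (TARS1, threonyl-tRNA synthetase), chr13:29595669-29595938 on the minus strand (SLC7A1, a transporter of arginine and lysine) and chr15:40953221-40953490 on the plus strand (CHAC1, an enzyme that breaks down glutathione). The match begins 68 bases before the start in ASNS, 42 bases before it in CEBPG, 209 bases before it in CHAC1 and 7 bases before it in SLC1A4. In TARS1 it begins at base 3 after the start, and in SLC7A1 at base 8 after it. Each sequence is written 5′ to 3′ in the direction of its gene.
ASNS: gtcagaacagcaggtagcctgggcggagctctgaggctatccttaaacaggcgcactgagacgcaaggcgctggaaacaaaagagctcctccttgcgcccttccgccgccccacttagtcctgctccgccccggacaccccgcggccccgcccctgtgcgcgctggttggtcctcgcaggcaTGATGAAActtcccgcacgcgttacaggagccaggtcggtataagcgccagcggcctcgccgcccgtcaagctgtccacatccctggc
SLC1A4: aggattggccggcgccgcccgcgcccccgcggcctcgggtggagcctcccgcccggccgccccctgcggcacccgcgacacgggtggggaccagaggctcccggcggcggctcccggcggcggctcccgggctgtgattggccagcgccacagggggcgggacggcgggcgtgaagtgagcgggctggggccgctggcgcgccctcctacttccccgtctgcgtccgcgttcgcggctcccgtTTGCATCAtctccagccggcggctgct
CEBPG: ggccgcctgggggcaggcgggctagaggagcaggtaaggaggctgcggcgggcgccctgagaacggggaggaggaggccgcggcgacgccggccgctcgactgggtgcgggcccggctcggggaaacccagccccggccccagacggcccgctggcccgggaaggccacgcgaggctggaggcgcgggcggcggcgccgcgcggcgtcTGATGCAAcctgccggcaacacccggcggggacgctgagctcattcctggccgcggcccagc
TARS1: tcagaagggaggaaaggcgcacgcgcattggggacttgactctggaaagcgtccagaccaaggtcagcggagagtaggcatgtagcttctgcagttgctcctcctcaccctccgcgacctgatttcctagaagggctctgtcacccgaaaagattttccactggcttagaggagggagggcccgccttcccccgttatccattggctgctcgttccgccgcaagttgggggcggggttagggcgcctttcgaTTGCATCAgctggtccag
SLC7A1: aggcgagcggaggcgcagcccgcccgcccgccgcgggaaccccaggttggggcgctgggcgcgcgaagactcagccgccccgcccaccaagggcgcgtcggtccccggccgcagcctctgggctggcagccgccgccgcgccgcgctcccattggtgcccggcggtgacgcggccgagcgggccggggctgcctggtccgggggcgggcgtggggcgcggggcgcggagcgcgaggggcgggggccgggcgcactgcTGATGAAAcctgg
CHAC1: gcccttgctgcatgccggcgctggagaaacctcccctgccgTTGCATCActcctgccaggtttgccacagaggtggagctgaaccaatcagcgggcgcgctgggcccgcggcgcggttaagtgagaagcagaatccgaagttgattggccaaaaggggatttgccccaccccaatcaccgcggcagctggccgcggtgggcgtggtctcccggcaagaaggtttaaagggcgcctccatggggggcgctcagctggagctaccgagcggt

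The targeted gene was lower on both SETD8 siRNA arrays, in the direction of their labels. The brightest of its 4 probe sets gave KMT5A signals of 431.4 with SETD8 siRNA 1, 584.1 with SETD8 siRNA 2 and 938.9 with the control siRNA. Its log2 difference from the control averaged -0.64 ± 0.32 with SETD8 siRNA 1 and -0.39 ± 0.23 with SETD8 siRNA 2 (SD over 4 probe sets). All 10 fibroblast markers passed the cut, with a summed signal between 172533 and 179585 on the 3 arrays, but single markers moved in opposite directions. DCN, the proteoglycan decorin, had 7745.9 with SETD8 siRNA 1, 22971.2 with SETD8 siRNA 2 and 20075.4 with the control siRNA, and LUM, the proteoglycan lumican, had 10701.6, 23797.7 and 13728.6 in that order. These 2 of the 10 were at least 2-fold lower with SETD8 siRNA 1 than with SETD8 siRNA 2 (6.18% of all genes). THY1 was lower by less, at -0.88 on the log2 scale, while FAP, COL3A1 and COL6A1 were higher, by 0.96, 0.59 and 0.58. Of 7 leukocyte markers, 5 had a probe set of their own and none of the 5 passed the cut. Of 7 endothelial markers 3 passed, with the adhesion molecule CDH5 at or under the floor on all arrays, and the summed signal was 1605.5 with SETD8 siRNA 1, 2220.6 with SETD8 siRNA 2 and 1390.2 with the control siRNA. Most of that sum came from TEK (1274.8, 2033.1 and 1251.3 in that order), whereas PECAM1 (135, 52.7 and 49) and VWF (130.5, 80.9 and 59.7) were dim and highest with SETD8 siRNA 1. Of 8 epithelial markers 3 passed, with ESRP1 at or under the floor on all arrays, and the summed signal was 3192.2 with SETD8 siRNA 1, 6556.1 with SETD8 siRNA 2 and 3374.9 with the control siRNA, most of it from the keratin KRT18 (2962.8, 6010.1 and 2987.4 in that order). The epithelial, endothelial and fibroblast sums were thus all highest with SETD8 siRNA 2, on whose array most of the amino acid response genes were lowest. The leukocyte sum, from markers under the cut, was highest with SETD8 siRNA 1 (202.5). The part of these marker differences in the results below was not tested.

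Most genes of the amino acid response had a lower signal with SETD8 siRNA 2 than with the control siRNA, while with SETD8 siRNA 1 they lay on both sides of it. DDIT3, TRIB3 and DDIT4 were above the control with SETD8 siRNA 1, by less than 2-fold, and below it with SETD8 siRNA 2, whereas the regulators ATF4, ATF5 and CEBPG were below it with both on their brightest probe sets. CHAC1 was above the control with both, and CEBPB with SETD8 siRNA 1, at control level with SETD8 siRNA 2. For SETD8 siRNA 2, a signal at most 0.5 times that of the control was found for 9 of the 38 genes (6.65% of all 12307 genes), and none reached 2-fold above it (4.46% of all genes). At any size, 34 of the 38 were below the control with SETD8 siRNA 2 (51.1% of all genes) and 23 with SETD8 siRNA 1 (51.6% of all genes). The 9 were ASNS, PHGDH, PSAT1, PSPH, ALDH1L2, CTH, DDIT4, VLDLR and SLC7A11. For SETD8 siRNA 1, 2-fold lower signal was found for 2 of the 38, SLC1A4 and SLC7A11 (7.75% of all genes), and 2-fold higher signal for 1, CHAC1 (5.48% of all genes). The median log2 difference from the control over the 38 stood at -0.16 under SETD8 siRNA 1 and at -0.49 under SETD8 siRNA 2, where the medians over all genes were -0.02 and -0.01. Both comparisons share the control array. At the lower line of 1.5-fold, SETD8 siRNA 2 left 17 genes lower (14.7% of all genes) and 1 higher (11.6%), and SETD8 siRNA 1 left 9 lower (16.4%) and 5 higher (12.7%), with 6 lower (7.37%) and 1 higher (4.59%) on both arrays. At 3-fold, 3 genes were lower with SETD8 siRNA 2 (2.93%), and none was lower (3.19%) or higher (2.48%) with SETD8 siRNA 1 or lower with both (1.55%). SLC7A11 was the single gene at least 2-fold lower with both siRNAs (3.23% of all genes), and none was at least 2-fold higher with both (1.5% of all genes). In RNA from whole cultures, fewer cells that express a gene and less RNA per cell cannot be told apart.

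**Figure D1:**
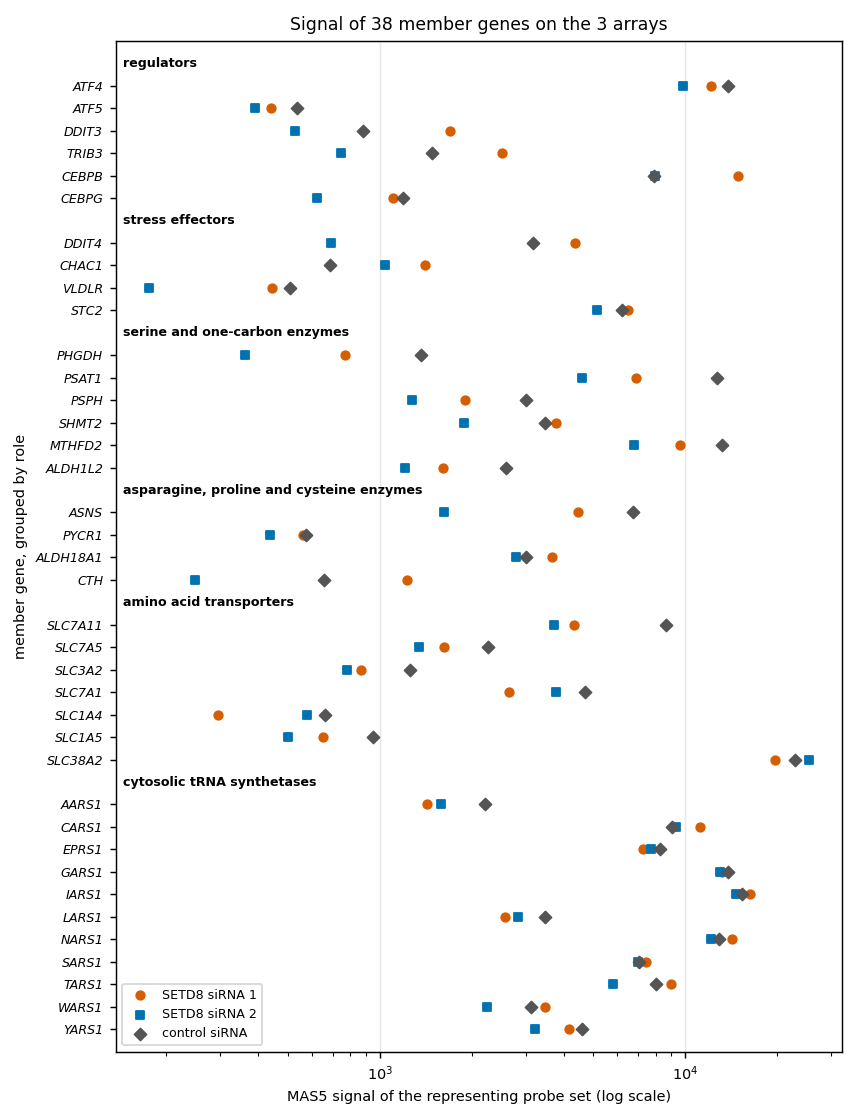
MAS5 signal (log scale) of the probe set that stands for each of the 38 genes on the SETD8 siRNA 1, SETD8 siRNA 2 and control siRNA arrays, 1 point per array, with genes grouped by role. The SETD8 siRNA 2 point is the lowest for 29 of the 38 genes, and the points of most tRNA synthetases lie close together.

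The array order was uneven. SETD8 siRNA 2 gave the lowest of the 3 signals for 29 of the 38 genes, where 33.4% of all genes had their lowest signal there. SETD8 siRNA 1 was lowest for 6 genes (35.4% of all genes) and the control for 3 (31.1% of all genes). The control was highest for 22 genes (33.9% of all genes), SETD8 siRNA 1 for 15 (34.0% of all genes) and SETD8 siRNA 2 for 1, the glutamine transporter gene SLC38A2 (32.1% of all genes). For 5 genes, ASNS, CTH, DDIT4, PHGDH and VLDLR, the SETD8 siRNA 2 array lay at least 2-fold under both other arrays (2.05% of all genes), and for no gene did the SETD8 siRNA 1 array lie at least 2-fold above (3.12% of all genes) or below both others (2.76% of all genes). For no gene did the SETD8 siRNA 2 array lie at least 2-fold above both others (1.85% of all genes).

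Among the regulators, ATF4 itself differed little. Its signal was 12136.7 with SETD8 siRNA 1, 9837.5 with SETD8 siRNA 2 and 13809.9 with the control siRNA, that is, 87.9% and 71.2% of control. With SETD8 siRNA 2, 19.7% of genes of the same signal quartile differed from the control by as much, so its change was ordinary in size. Such a share is used below in place of an error: it counts the genes of like signal, 3076 or 3077 in each quartile, whose difference was as large in either direction. ATF5, a related factor that is translated in the same way, had 440.6 with SETD8 siRNA 1, 391.3 with SETD8 siRNA 2 and 537.3 with the control siRNA, but its 3 probe sets over the cut ranged from -0.46 to 1.00 in the log2 difference of SETD8 siRNA 2 from the control, so its direction is unsettled.

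The regulators that act downstream of ATF4 stood apart more. DDIT3, which encodes the stress factor CHOP, had signals of 1700.8 with SETD8 siRNA 1, 529.3 with SETD8 siRNA 2 and 877.6 with the control siRNA. TRIB3, a pseudokinase that restrains ATF4 and CHOP, had 2512.5 with SETD8 siRNA 1, 745.2 with SETD8 siRNA 2 and 1482.5 with the control siRNA. For both genes SETD8 siRNA 1 was above and SETD8 siRNA 2 below the control, by less than 2-fold each way: 0.95 and -0.73 on the log2 scale for DDIT3, and 0.76 and -0.99 for TRIB3. After quantile normalization DDIT3 passed 2-fold with SETD8 siRNA 1, at 1.01. Between the SETD8 siRNAs DDIT3 thus differed 3.21-fold and TRIB3 3.37-fold, and 2.67% and 2.24% of genes of their signal quartile differed between these arrays by as much.

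The C/EBP partners did not share that pattern. CEBPB, a stress and inflammation factor, was 14838.2 with SETD8 siRNA 1, 7961.1 with SETD8 siRNA 2 and 7916.0 with the control siRNA, so it was 1.87-fold higher with SETD8 siRNA 1 alone. CEBPG was 1108.0 with SETD8 siRNA 1, 621.5 with SETD8 siRNA 2 and 1187.4 with the control siRNA, or 93.3% and 52.3% of control. The second CEBPG probe set had 69.3% of the control signal for SETD8 siRNA 1 and 56.0% for SETD8 siRNA 2, so both gave a lower signal with SETD8 siRNA 2 but they differ in size for SETD8 siRNA 1. Between the SETD8 siRNAs the second gave 0.31, against 0.83 on the log2 scale.

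Of the stress effectors, DDIT4, an inhibitor of mTORC1 signalling also called REDD1, had the largest difference of all 38 genes from the control and between the SETD8 siRNAs. Its signal was 4343.2 with SETD8 siRNA 1, 689.7 with SETD8 siRNA 2 and 3181.9 with the control siRNA. It was 4.61-fold lower with SETD8 siRNA 2 than with the control, and 6.30-fold higher with SETD8 siRNA 1 than with SETD8 siRNA 2, sizes reached by 0.325% and 0.585% of genes of its quartile. VLDLR, a receptor for lipoproteins, was 443.4 with SETD8 siRNA 1, 175.1 with SETD8 siRNA 2 and 508.7 with the control siRNA. With SETD8 siRNA 1 the signals were 136% and 87.2% of control for DDIT4 and VLDLR, both were lowest with SETD8 siRNA 2, and each rests on 1 probe set with a shared suffix.

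CHAC1 went the other way from most of the response. It had 1403.2 with SETD8 siRNA 1, 1041.9 with SETD8 siRNA 2 and 686.9 with the control siRNA, a log2 difference of 1.03 for SETD8 siRNA 1 and 0.60 for SETD8 siRNA 2. It was higher than the control on both arrays, past 2-fold only with SETD8 siRNA 1. STC2, a secreted glycoprotein, had 6473.4 with SETD8 siRNA 1, 5138.1 with SETD8 siRNA 2 and 6229.7 with the control siRNA, and 41.4% of genes of its quartile differed from the control by as much with SETD8 siRNA 2.

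**Figure D2:**
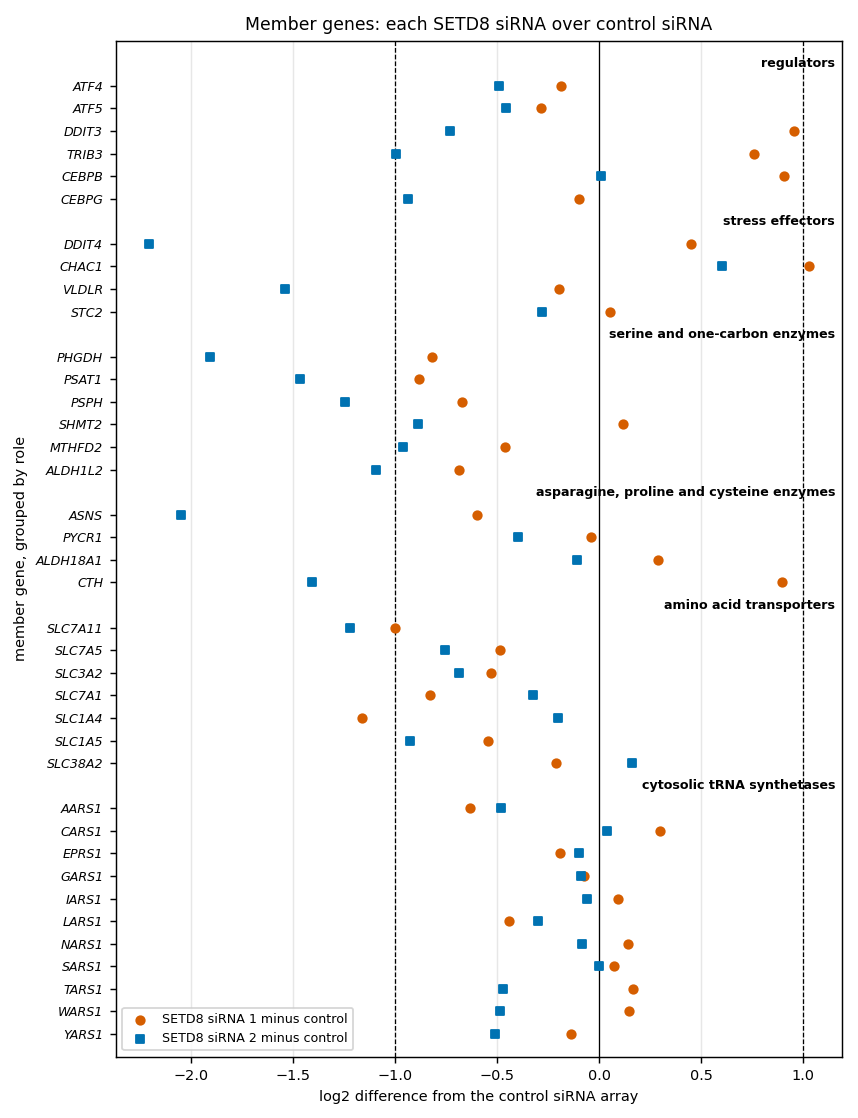
Log2 difference from the control siRNA array for SETD8 siRNA 1 and SETD8 siRNA 2, with 1 point per gene and siRNA and dashed lines at 2-fold. With SETD8 siRNA 2 the points of 34 of the 38 genes lie left of 0 and 9 lie beyond the 2-fold line, while with SETD8 siRNA 1 they lie on both sides.

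The serine and one-carbon enzymes were lower as a group with SETD8 siRNA 2: all 6 were below the control (51.1% of all genes), 4 of them at least 2-fold (6.65% of all genes), with a median log2 difference of -1.17. With SETD8 siRNA 1, 5 of the 6 were below the control (51.6% of all genes), none of them 2-fold (7.75% of all genes), with a median of -0.68. PHGDH, PSAT1 and PSPH catalyse the successive steps from a glycolytic intermediate to serine. PHGDH had signals of 771.6 with SETD8 siRNA 1, 362.5 with SETD8 siRNA 2 and 1359.2 with the control siRNA. PSAT1 had 6881.3 with SETD8 siRNA 1, 4585.3 with SETD8 siRNA 2 and 12671.7 with the control siRNA. PSPH had 1894.9 with SETD8 siRNA 1, 1273.8 with SETD8 siRNA 2 and 3013.2 with the control siRNA. The order was the same for all 3 genes, with the control highest, SETD8 siRNA 1 between and SETD8 siRNA 2 lowest, at 26.7%, 36.2% and 42.3% of control.

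The next enzymes of the pathway carry the serine carbon into mitochondrial folate metabolism. SHMT2, which splits serine into glycine and a one-carbon unit, had 3776.5 with SETD8 siRNA 1, 1883.2 with SETD8 siRNA 2 and 3486.6 with the control siRNA. MTHFD2, which oxidises that unit, had 9588.2 with SETD8 siRNA 1, 6782.1 with SETD8 siRNA 2 and 13189.9 with the control siRNA. ALDH1L2, which releases it as carbon dioxide and reducing power, had 1606.8 with SETD8 siRNA 1, 1213.2 with SETD8 siRNA 2 and 2586.6 with the control siRNA. SHMT2 was the only one of the 6 enzymes above the control with SETD8 siRNA 1, by 0.12 on the log2 scale, and its 3 probe sets averaged -0.04 ± 0.17 (SD), so it lay at control level there. With SETD8 siRNA 2 the 3 SHMT2 probe sets averaged -0.93 ± 0.05 (SD) and the 2 MTHFD2 probe sets -0.98 ± 0.02 (SD), just short of 2-fold. For PSPH the probe sets disagreed in size, from -1.24 to -0.11, and with all of them averaged PSPH was under 2-fold, at -0.63. After quantile normalization MTHFD2 passed 2-fold, at -1.05.

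ASNS and CTH were the other biosynthetic enzymes past 2-fold. ASNS, which makes asparagine and whose window with the motif is shown above, had 4444.2 with SETD8 siRNA 1, 1628.2 with SETD8 siRNA 2 and 6732.5 with the control siRNA. It was 4.13-fold lower than the control with SETD8 siRNA 2, a size reached by 0.520% of genes of its quartile, and it was at 66.0% of control with SETD8 siRNA 1. CTH, which makes cysteine from cystathionine, had 1223.8 with SETD8 siRNA 1, 248.5 with SETD8 siRNA 2 and 657.9 with the control siRNA. CTH was therefore above the control with one SETD8 siRNA and below it with the other, on both of its probe sets (0.90 and 0.94 with SETD8 siRNA 1, -1.40 and -0.87 with SETD8 siRNA 2). The proline enzymes moved less: PYCR1 had log2 differences of -0.04 for SETD8 siRNA 1 and -0.40 for SETD8 siRNA 2, and ALDH18A1 had 0.29 and -0.11.

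Most amino acid transporters were below the control with both SETD8 siRNAs. All 7 genes that passed the cut were below the control with SETD8 siRNA 1 (51.6% of all genes) and 6 were with SETD8 siRNA 2 (51.1%). The median log2 differences were -0.54 and -0.69. SLC7A11, the cystine and glutamate exchanger subunit, had 4332.1 with SETD8 siRNA 1, 3718.5 with SETD8 siRNA 2 and 8674.3 with the control siRNA. With SETD8 siRNA 1 it was at 49.9% of control, next to the 2-fold line, and the dimmest of its 3 probe sets gave a log2 difference of -0.39 there. SLC7A5 and SLC3A2, the light and heavy chains of a leucine exchanger, had close values: -0.49 and -0.53 with SETD8 siRNA 1, and -0.75 and -0.69 with SETD8 siRNA 2. SLC1A5, a glutamine carrier, had -0.54 for SETD8 siRNA 1 and -0.93 for SETD8 siRNA 2.

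Another group of transporters was lowest with SETD8 siRNA 1. SLC1A4 had signals of 295.8 with SETD8 siRNA 1, 575.8 with SETD8 siRNA 2 and 662.5 with the control siRNA. SLC7A1 had 2656.5 with SETD8 siRNA 1, 3769.5 with SETD8 siRNA 2 and 4714.8 with the control siRNA. SLC38A2 had 19730.1 with SETD8 siRNA 1, 25507.4 with SETD8 siRNA 2 and 22820.5 with the control siRNA, and signals this high may be compressed. Every probe set of these 3 genes over the cut, 4 for SLC1A4, 3 for SLC7A1 and 3 for SLC38A2, was lower with SETD8 siRNA 1 than with SETD8 siRNA 2, by 0.32 to 0.96, 0.45 to 0.62 and 0.35 to 0.37 on the log2 scale. With SETD8 siRNA 1, SLC1A4 was under 2-fold from the control when probe sets were averaged, at -0.80, and SLC7A1 was past it without shared probe sets, at -1.14.

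None of the 11 tRNA synthetases was 2-fold apart from the control with either siRNA. Since 4.46% to 7.75% of all genes passed 2-fold in each direction, a count of 0 among 11 genes is near the background. Their log2 differences ran from -0.63 to 0.30 with SETD8 siRNA 1 and from -0.51 to 0.04 with SETD8 siRNA 2, with medians of 0.07 and -0.10. AARS1, which charges alanine, was the furthest below the control with SETD8 siRNA 1, with signals of 1430.9 with SETD8 siRNA 1, 1585.7 with SETD8 siRNA 2 and 2214.2 with the control siRNA. TARS1 had 8997.2 with SETD8 siRNA 1, 5784.1 with SETD8 siRNA 2 and 8015.1 with the control siRNA. WARS1, for tryptophan, had 3468.2 with SETD8 siRNA 1, 2240.4 with SETD8 siRNA 2 and 3133.7 with the control siRNA. These 3 genes, at 71.6%, 72.2% and 71.5% of control, and YARS1, for tyrosine, at 70.2%, formed the lower end with SETD8 siRNA 2. On their brightest probe sets GARS1, IARS1, NARS1, SARS1 and EPRS1, for glycine, isoleucine, asparagine, serine and for glutamate with proline, stayed between 93.3% and 99.8% of control there. The remaining genes, CARS1 for cysteine and LARS1 for leucine, had 103% and 81.3%. Of 3 EPRS1 probe sets over the cut, the dimmest gave -0.70 for SETD8 siRNA 1 and -0.57 for SETD8 siRNA 2. SARS1 had a second, dimmer probe set, which gave -0.91 for SETD8 siRNA 1 and -1.02 for SETD8 siRNA 2, while the 1 YARS1 probe set over the cut gave -0.51 for SETD8 siRNA 2. Averaging it with a YARS1 probe set under the cut (25.3 with SETD8 siRNA 1, 16.1 with SETD8 siRNA 2 and 60.4 with the control siRNA, near the floor) moved YARS1 past 2-fold, to -1.21.

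Set directly against each other, the SETD8 siRNAs differed in 1 direction for most of the genes. SETD8 siRNA 1 gave the higher signal for 32 of the 38 genes, where it did so for 50.2% of all genes, and the median log2 difference was 0.38, against 0.00 over all genes. At least 2-fold higher with SETD8 siRNA 1 than with SETD8 siRNA 2 were 8 genes (6.38% of all genes): DDIT4, CTH, TRIB3, DDIT3, ASNS, VLDLR, PHGDH and SHMT2. None was at least 2-fold lower (6.18% of all genes). At 1.5-fold 13 were higher (13.5% of all genes) and 1 lower (14.3%), and at 3-fold 4 were higher (2.78%). The gene just inside the 2-fold line was SHMT2, 2.01-fold higher, and the one just outside was SLC1A4, at -0.96 on the log2 scale. By role, the median difference was 0.92 for the enzymes of asparagine, proline and cysteine, 0.88 for the stress effectors, 0.87 for the regulators, 0.58 for the serine and one-carbon enzymes, 0.15 for the transporters and 0.15 for the tRNA synthetases. The 6 genes higher with SETD8 siRNA 2 were SLC1A4, SLC7A1, SLC38A2, AARS1, LARS1 and EPRS1, all of them transporters or tRNA synthetases.

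**Figure D3:**
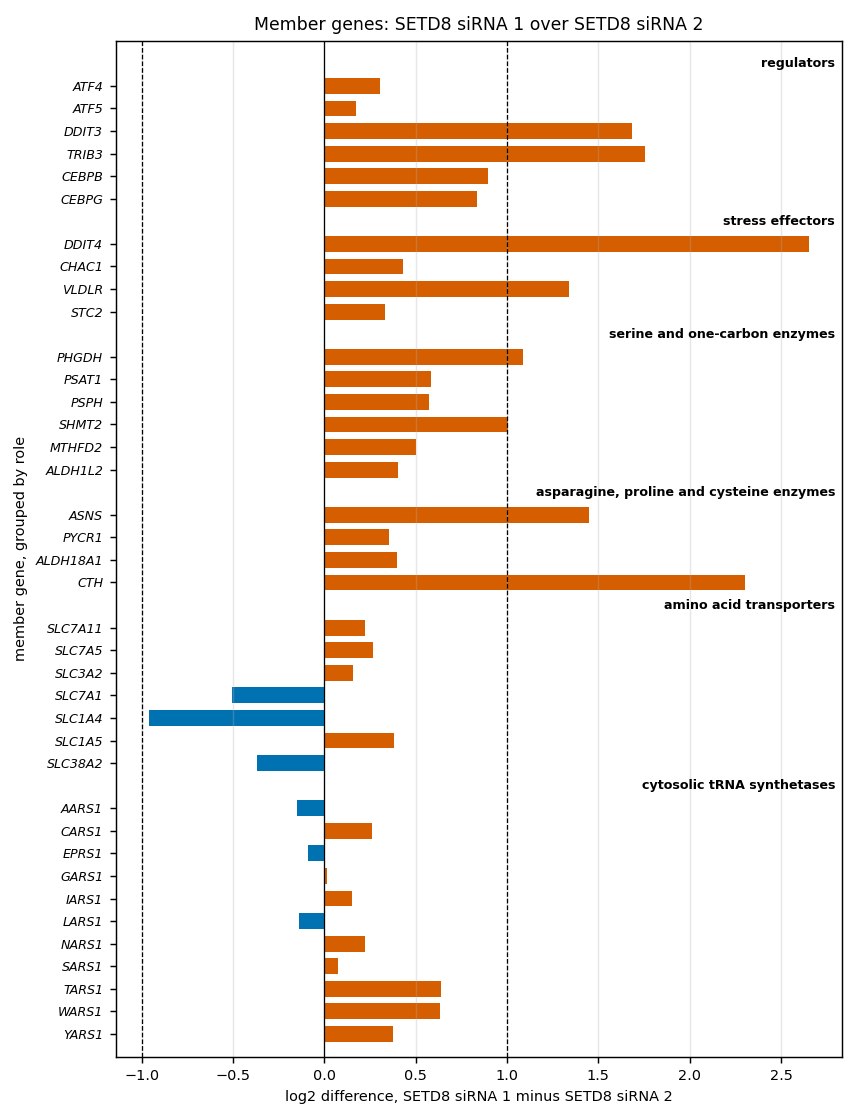
Log2 difference of SETD8 siRNA 1 minus SETD8 siRNA 2 for each of the 38 genes, with bars from 0 and dashed lines at 2-fold. The bars of 32 genes point right, toward higher signal with SETD8 siRNA 1, and the 8 past the line are regulators, stress effectors or enzymes.

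Several genes have more than 1 probe set over the cut, which measures the same RNA again within an array. Of 20 such genes, 16 gave the same sign of the difference between the SETD8 siRNAs on every probe set, and ALDH1L2, ATF5, CARS1 and PSPH did not. The 2 CTH probe sets averaged 2.05 ± 0.35, the 2 TRIB3 probe sets 1.30 ± 0.64 and the 3 SHMT2 probe sets 0.89 ± 0.17 (SD over probe sets). Of the 8 genes past 2-fold between the SETD8 siRNAs, CTH was thus over 2-fold on each probe set, TRIB3 on 1 of 2, and the other genes except SHMT2 rest on a single probe set over the cut. Over genes with more than 1 such probe set on the whole array, 6151 in number, the median SD of this difference was 0.24.

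**Figure D4:**
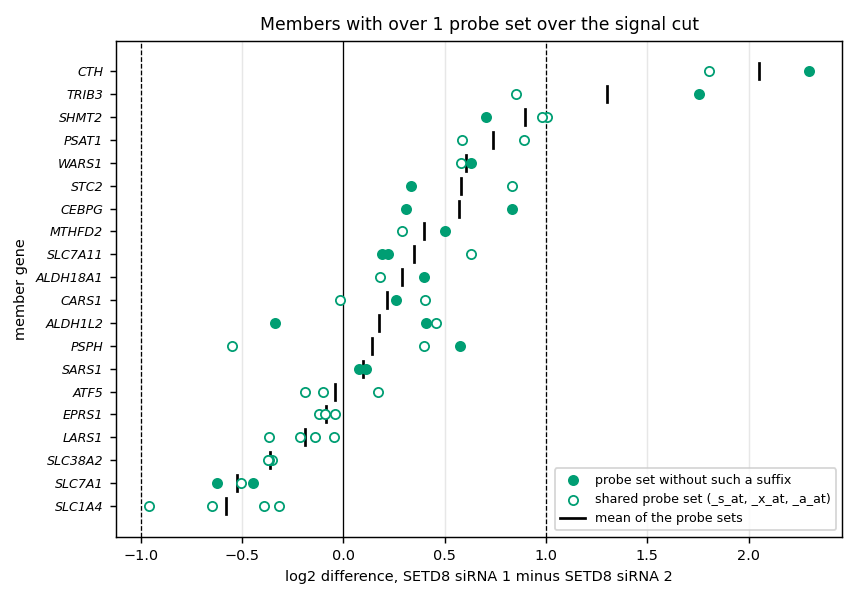
Log2 difference of SETD8 siRNA 1 minus SETD8 siRNA 2 for each probe set of the 20 genes that have more than 1 over the cut, with open points for probe sets whose suffix marks shared or near-identical transcripts and a bar at the mean. CTH lies beyond 2-fold on both probe sets and 4 genes have probe sets on both sides of 0.

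The differences were set beside the presence of the motif in a promoter window. The 13 genes that held it and passed the cut had a median log2 difference of -0.32 between SETD8 siRNA 2 and the control, and 1 of them, ASNS, was at least 2-fold lower. The 18 genes with windows that lacked it had -0.61, and 5 of them were at least 2-fold lower (6.65% of all genes). Of the 13, however, 6 were tRNA synthetases, against 3 of the 18. Without the synthetases the medians were -0.69 for 7 genes with the motif and -0.75 for 15 without it, so the gap between the medians was smaller. Between the SETD8 siRNAs the medians were 0.22 with the motif and 0.54 without it, or 0.38 and 0.59 when the synthetases were left out. These values describe the chosen windows only, and 7 of the 40 genes, among them PSPH, SHMT2, ALDH1L2 and SLC7A11, were not matched in the table.

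Other genes of the pathway were set beside the 38. Of 7 further cytosolic tRNA synthetase and scaffold genes and 9 genes for the eIF2 kinases, their phosphatase subunits and GCN2 cofactors, none was 2-fold apart from the control with either siRNA, and the medians with SETD8 siRNA 2 were -0.07 and -0.06. EIF2AK4, which encodes GCN2, had log2 differences of -0.30 for SETD8 siRNA 1 and 0.28 for SETD8 siRNA 2, and EIF2AK3, which encodes PERK, had 0.53 and 0.23. Of 15 mitochondrial tRNA synthetases, 1 was at least 2-fold higher with SETD8 siRNA 1 (5.48% of all genes), MARS2 at 1.43. With SETD8 siRNA 2 none was (4.46% of all genes), and MARS2 lay just short of 2-fold, at 0.99. Its 1 probe set over the cut was dim, at 258.3 with SETD8 siRNA 1, 191.2 with SETD8 siRNA 2 and 96.0 with the control siRNA. Of 13 genes for mTORC1 and its amino acid sensing, none was 2-fold apart from the control. In each direction 4.46% to 7.75% of all genes passed 2-fold, so counts of 0 in lists this short are near the background.

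Among 13 other genes linked to ATF4, the 2-fold line was passed upward by 3 and downward by 1 with SETD8 siRNA 1, and upward by 0 and downward by 1 with SETD8 siRNA 2. The 4 that were at least 2-fold higher with SETD8 siRNA 1 than with SETD8 siRNA 2 (6.38% of all genes) were GDF15, VEGFA, ATF3 and CBS. GDF15, a secreted stress cytokine, had signals of 22452.5 with SETD8 siRNA 1, 1748.5 with SETD8 siRNA 2 and 1642.9 with the control siRNA. These come from the brighter of its 2 probe sets over the cut, with log2 differences of 3.77 for SETD8 siRNA 1 and 0.09 for SETD8 siRNA 2. The other was dim, at 106.8 with SETD8 siRNA 1, 19.7 with SETD8 siRNA 2 and 38.2 with the control siRNA, and gave 1.48 and -0.96. VEGFA, an angiogenic growth factor, had 8027.2 with SETD8 siRNA 1, 1913.0 with SETD8 siRNA 2 and 2506.6 with the control siRNA, and its 4 probe sets ranged from 0.41 to 2.13 for SETD8 siRNA 1, from -0.72 to 0.21 for SETD8 siRNA 2 and from 0.97 to 2.07 between them. ATF3, a stress-induced factor, had 2.13 for SETD8 siRNA 1 and 0.23 for SETD8 siRNA 2, and 1.55 and -0.38 on its second probe set. These 3 genes were above the control with SETD8 siRNA 1 on every probe set over the cut, while with SETD8 siRNA 2 their probe sets lay on both sides of it. CBS, which acts just before CTH, had 0.60 and -0.77 and so followed CTH on its brighter probe set, but the other gave -0.55 with SETD8 siRNA 1. The lower genes were JDP2 (-1.09 with SETD8 siRNA 1) and EIF4EBP1, a repressor of translation (-1.14 with SETD8 siRNA 2).

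Of 7 other serine and folate enzymes, TYMS, the thymidylate synthase of dividing cells, was lower with both siRNAs, at 3374.0 with SETD8 siRNA 1, 2758.1 with SETD8 siRNA 2 and 11693.8 with the control siRNA. GLDC, a glycine-cleavage enzyme, was at 146.9 with SETD8 siRNA 1, 38.6 with SETD8 siRNA 2 and 56.1 with the control siRNA. Its 1 probe set was dim, and under the cut of 42.0 with SETD8 siRNA 2, so the order of its lower values is unsettled. The cytosolic folate enzyme MTHFD1 had log2 differences of -0.69 for SETD8 siRNA 1 and -0.47 for SETD8 siRNA 2. With that limit GLDC had the array order of CTH, highest with SETD8 siRNA 1 and lowest with SETD8 siRNA 2. TYMS and MTHFD1 were below the control on both arrays. With SETD8 siRNA 1, GLDC was at least 2-fold above the control (5.48% of all genes). TYMS was at least 2-fold below it on both arrays (3.23% of all genes), and no other gene of this list passed 2-fold from the control.

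Of 12 other amino acid transporters, 2 were at least 2-fold higher with SETD8 siRNA 1 (5.48% of all genes), SLC6A6 and SLC7A7, and none lower (7.75%). With SETD8 siRNA 2, 2 were higher (4.46%), SLC6A6 and SLC1A1, and 1 lower (6.65%), SLC7A2. SLC6A6, a taurine transporter, was the one higher with both (1.5% of all genes). Its signal was 4199.2 with SETD8 siRNA 1, 4531.4 with SETD8 siRNA 2 and 1722.3 with the control siRNA. SLC7A2, a relative of SLC7A1 that carries the same cationic amino acids, had 1486.7 with SETD8 siRNA 1, 265.7 with SETD8 siRNA 2 and 906.6 with the control siRNA. SLC1A1, a glutamate transporter that also takes up cysteine, had 222.8 with SETD8 siRNA 1, 1091.3 with SETD8 siRNA 2 and 219.9 with the control siRNA. SLC7A2 and SLC7A1 thus had opposite orders of the SETD8 siRNAs.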

How the data were processed

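Biotin-labelled cRNA from 250 ng of total RNA per sample, with 1 sample per siRNA, was hybridised to Affymetrix arrays of 1 colour, per the labels. The authors deposited linear intensity values, 1 for each probe set, which they computed with MAS5 according to the submitters' processing notes. No source used here gives the MAS5 version or settings. Without the extreme 2% at either end the mean intensity was 497 on each array, so no scaling was added, and a shift of all genes would be hidden. The number of arrays limits the precision.

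Of 54613 probe sets, 41091 carried 1 gene symbol in GEO's platform annotation, brought up to date through gene numbers with RefSeq of GRCh38.p14 (41037 matched). Intensities under 11.7 (the 25th percentile) were raised to it, log2 was taken, and each gene was represented by its probe set of highest mean. Genes from the median probe set upward (5.39 on the log2 scale) were kept, and differences of at least 2-fold were counted. The counting of genes past 2-fold with both SETD8 siRNAs was tested on simulated data with equal changes on both arrays. No change with 1 siRNA alone was simulated, so counts for 1 siRNA or between the siRNAs were not tested there. Members and lists were chosen with earlier results of these data known. Named from the other lists were up to 3 genes past 2-fold with both SETD8 siRNAs and up to 2 with the largest 2-fold difference between them. EIF2AK3, EIF2AK4, MTHFD1, ATF3, CBS, JDP2, EIF4EBP1, MARS2, SLC7A7 and the markers were named after their values were seen, and the array orders and the counts of 1 array apart from both others were added then. Counts and medians were recomputed with other scalings (median, quantile), a pseudocount of 16, no cut, a cut at the 75th percentile, other choices of probe set (mean of all, suffixes _s_at, _x_at and _a_at left out, brightest on the control array) and folds of 1.5 and 3. The closing section gives a pooled count over these settings and some of the changes, not every setting by name. Tools were Python 3.11.15 with pandas 2.3.3, numpy 2.4.6, matplotlib 3.10.9 and scipy 1.17.1.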

Additional observations from a re-analysis of the deposited data

Results flagged for a closer look

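CTH, DDIT3 and TRIB3 were at least 1.5-fold above the control with SETD8 siRNA 1 and at least 1.5-fold below it with SETD8 siRNA 2. The log2 difference of SETD8 siRNA 1 minus SETD8 siRNA 2 was 2.30 for CTH, 1.68 for DDIT3 and 1.75 for TRIB3. These were 3 of the 38 genes (7.89%), where 299 of 12307 genes (2.43%) lay that far apart in opposite directions. With 1 array per siRNA the difference between the siRNAs was not tested.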

How the results depend on the processing

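No paired analysis was possible because each siRNA has 1 array, and no result comes from a test. Of 112 recomputed counts and medians, 88 stayed the same or within 1.5 times (counts), or kept their sign within 0.1 (log2 medians). Counts of 0 that stayed at 0 are among the 88. The 112 also include counts at other folds and over fewer genes, so the 88 is not a measure of robustness. Leaving out shared probe sets left 23 of the 38 genes. Their median turned to 0.055 with SETD8 siRNA 1 and became -0.70 with SETD8 siRNA 2, against -0.04 and -0.01 over all genes. Of the 23, 5 were 2-fold lower with SETD8 siRNA 2, and 4 were 2-fold higher with SETD8 siRNA 1 than with SETD8 siRNA 2. The shares of all genes for these 2 counts are not given here. ASNS, DDIT4, VLDLR, PSAT1 and SLC1A4 had no probe set left in that setting that passed the cut. For SLC1A4, the values over the cut thus rest on shared probe sets alone. Its 1 other probe set, under the cut, had 52.5 with SETD8 siRNA 1, 18.6 with SETD8 siRNA 2 and 61.3 with the control siRNA. There the order of the SETD8 siRNAs was the opposite one. With the cut at the 75th percentile VLDLR did not pass. It was then missing from the genes 2-fold lower with SETD8 siRNA 2 and from those 2-fold apart between the SETD8 siRNAs. With SETD8 siRNA 1, the count of 2-fold lower genes became 1 with median scaling, 1 with the pseudocount and 0 with probe sets averaged, and that of higher genes 2 with quantile normalization. The count lower with both siRNAs became 0 with median scaling, 0 with the pseudocount and 0 with probe sets averaged, since SLC7A11 then lay under 2-fold with SETD8 siRNA 1, at -0.97, -0.999 and -0.81. SHMT2 was under 2-fold between the SETD8 siRNAs with median scaling, quantile normalization, the pseudocount, averaged probe sets or shared probe sets left out, down to 0.70 on the log2 scale in the last. At 1.5-fold, 5 genes were higher (12.7% of all genes) and 9 lower (16.4%) with SETD8 siRNA 1. With SETD8 siRNA 2, 1 was higher (11.6%) and 17 lower (14.7%), and with both, 1 was higher (4.59%) and 6 lower (7.37%). Between the SETD8 siRNAs, 13 were higher (13.5%) and 1 lower (14.3%) with SETD8 siRNA 1 at 1.5-fold. At 3-fold, 0 were higher (2.48%) and 0 lower (3.19%) with SETD8 siRNA 1, 3 lower with SETD8 siRNA 2 (2.93%) and 0 lower with both (1.55%). Also at 3-fold, 4 were higher with SETD8 siRNA 1 than with SETD8 siRNA 2 (2.78%). The count of genes with a higher signal on the SETD8 siRNA 1 than on the SETD8 siRNA 2 array stayed at 32 of 38 with either scaling and with probe sets averaged, and was 21 of 23 without shared probe sets. Among all genes the share was 49.1% with median scaling, 50.8% with quantile normalization, 49.0% with probe sets averaged and 48.6% without shared probe sets.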
